A study of Mus musculus with 6 samples.

Results

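The mitochondrial carrier genes are the *Slc25* family together with *Ucp2* and *Ucp3*. They were taken from the array as the symbols that begin with Slc25a and a digit, plus *Ucp2* and *Ucp3*, with 1 probe per symbol, the one of highest mean log2 signal over all arrays. This gave 42 of the 18138 symbols on the array, covered by 64 probes. RNA of cochlear tissue was compared between 3 WT and 3 *Cmah*-null mice, all 12 months old and C57BL/6 by the labels (C57BL/6J in the study's methods), on Illumina MouseRef-8 v2 bead arrays with 25697 probes and 1 array per sample. The *Cmah*-null mice carried the knockout allele tm1Ykoz and lack CMP-Neu5Ac hydroxylase, the enzyme that makes the sialic acid Neu5Gc. The comparison addressed gene expression in a mouse line studied for age-related hearing loss. Sex, litter and any pooling of cochleae are not given, so the p values measure only the spread between these samples.

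Mitochondrial carriers are small proteins of the inner mitochondrial membrane, built from repeats of a shared fold, and each exchanges a particular set of solutes between the cytosol and the matrix. Among them are the exchangers of ADP for ATP, the phosphate carrier, the carriers of citrate, oxoglutarate, aspartate and glutamate, the carnitine carrier that brings in fatty acyl groups, the carriers of cofactors and iron, and the uncoupling proteins, which let protons back into the matrix. The cochlea spends much energy on ion transport, above all in the stria vascularis, and a dissected cochlea can also hold bone, marrow, muscle and fat. In bulk tissue, fewer cells of a type and less RNA per cell cannot be told apart.

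The values for *Slc25a20* and *Slc25a3* differed between their probes, so the bases of these probes are shown as the array's annotation gives them. The number in each name is the first base of the probe in its annotated transcript. That was NM_020520.2 for the *Slc25a20* probes, except NM_020520.4 for the probe at 1598, and NM_133668.3 and NM_133668.2 for the *Slc25a3* probes at 755 and 1410. Of each probe 50 bases long, the first 30 bases are shown where the probe lies late in the transcript.
Slc25a20 probe at base 1448 (first 30 bases): gtctctggtgccatccatatactcctggct
Slc25a20 probe at base 133: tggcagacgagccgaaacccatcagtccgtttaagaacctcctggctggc
Slc25a20 probe at base 1598 (first 30 bases): aagaaagctacaattgtctaaatccccagg
Slc25a3 probe at base 755: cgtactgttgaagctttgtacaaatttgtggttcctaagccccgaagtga
Slc25a3 probe at base 1410 (first 30 bases): ccattggtgctattcctaaattgtcccctc

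*Slc25a20* was also the only carrier gene at 1.5-fold with an unadjusted p under 0.05, so its promoter is shown, the 250 bases before the RefSeq transcription start, at chr9:108661886-108662135 on the plus strand of GRCm38.p6. Capitals mark matches, on either strand, to the GC box GGGCGG and to the ETS core CCGGAAG, which is read by GABP, a known activator of nuclear genes for mitochondrial proteins.
Slc25a20 promoter: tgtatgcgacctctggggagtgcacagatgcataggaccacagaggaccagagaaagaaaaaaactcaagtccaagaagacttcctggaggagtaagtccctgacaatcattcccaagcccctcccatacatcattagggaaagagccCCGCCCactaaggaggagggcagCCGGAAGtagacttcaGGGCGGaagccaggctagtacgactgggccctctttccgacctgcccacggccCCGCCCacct
RefSeq promoters were found for 33 of the 42 genes, 42 promoters in all, of 32851 in the table. The GC box stood in 71.4% of the carrier promoters and in 32.7% of all promoters, and the ETS core in 11.9% and 6.91%. The E-box CACGTG stood in 19% against 6.02%, the NRF1 core GCGCATGC in 2.38% against 2.26%, and the ERR element TCAAGGTCA in 0 against 0.387%. Such matches describe the letters in these windows and do not show that a factor binds there.

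An array detected 13873 to 15223 probes, and 32 to 35 of the 42 carrier genes, where detection means a detection p under 0.05. The only *Cmah* probe was near background, with log2 signals of 7.27, 7.28 and 7.87 in WT and 7.95, 7.98 and 7.27 in *Cmah*-null samples, so it gives no check of the genotypes. *Cmah*-null replicates 1 and 2 were the closest pair of arrays. The SD of their log2 difference over the carrier genes was 0.14, against 0.34 to 0.63 for the other pairs. Of the cochlear markers, *Otos*, *Coch*, *Gjb2* and *Gjb6* were detected on 6 arrays, while *Otor* and *Tectb* were not detected on any. Of the hair cell genes, *Myo7a*, *Otof*, *Tmc1* and *Espn* were detected on 6 arrays, *Cdh23* and *Ocm* on 1, and *Pou4f3* and *Slc26a5* on none. The genes listed as brown fat markers differed between the groups. Their summed linear signal ranged from 46504 to 67772 in WT and from 10671 to 28108 in *Cmah*-null samples, with no overlap. The brightest of them on each array was *Cox8b*, which the study also lists under cardiac muscle contraction. This sum is therefore no measure of brown fat apart from muscle. Skeletal muscle markers overlapped, at 332185 to 555869 in WT and 358535 to 383383 in *Cmah*-null mice, as did general fat markers, at 29853 to 60579 and 18679 to 53244. Of the hair cell, cochlear support and neuron lists, 0 genes were called.

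Of the 42 carrier genes, 1 was called lower in *Cmah*-null than in WT cochlea, where a call needs 1.5-fold and an unadjusted limma p below 0.05, and 0 were called higher. Over all symbols 1.46% were called lower and 1.61% higher by this rule, so a single call among the carriers (2.38%) is near the background. None passed an adjusted p of 0.05 with limma, where the smallest adjusted p of a carrier gene was 0.417, and 0 of all symbols (0%) passed it. At an unadjusted p under 0.05 with no fold threshold, 4 of the 42 carrier genes were lower and 5 were higher. These are larger shares than the 3.49% lower and 5.58% higher (9.07% in all) over all symbols, with no set test. Among the 31 carrier genes detected on 6 arrays, the same gene was called lower, against 2.54% lower and 2.73% higher among all 9907 symbols detected there. With no fold threshold, 4 of these 31 were lower and 4 higher, beside 510 and 825 of the 9907 symbols.

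The sign of the log2 fold change was negative in 24 carrier genes and positive in 18. Its median was -0.10, beside 0.01 over all symbols. All *Cmah*-null values lay below all WT values in 6 carrier genes (14.3%) and above them in 5 (11.9%), where all symbols gave 6.67% and 10.0%. Among those detected on 6 arrays these counts were 5 and 4 of 31, and all such symbols gave 7.43% lower and 12.1% higher. The sign of this median depended on the scaling of the arrays. With the raw signals scaled to one median per array, the median of the carrier genes was 0.08, and 15 were lower and 27 higher. The median over all symbols was then 0.04. Among genes detected on 6 arrays, the carrier median moved from -0.10 to 0.20 and that of all symbols from 0.04 to 0.34. The median of the carriers detected there thus lay below that of all such symbols under both scalings, with no test. Their median log2 signal was 10.41, 9.93 and 9.98 on WT replicates 1, 2 and 3. On *Cmah*-null replicates 1, 2 and 3 it was 10.09, 10.00 and 10.05. WT replicate 1 was thus the highest, and WT replicates 2 and 3 lay below all *Cmah*-null arrays.

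**Figure D1:**
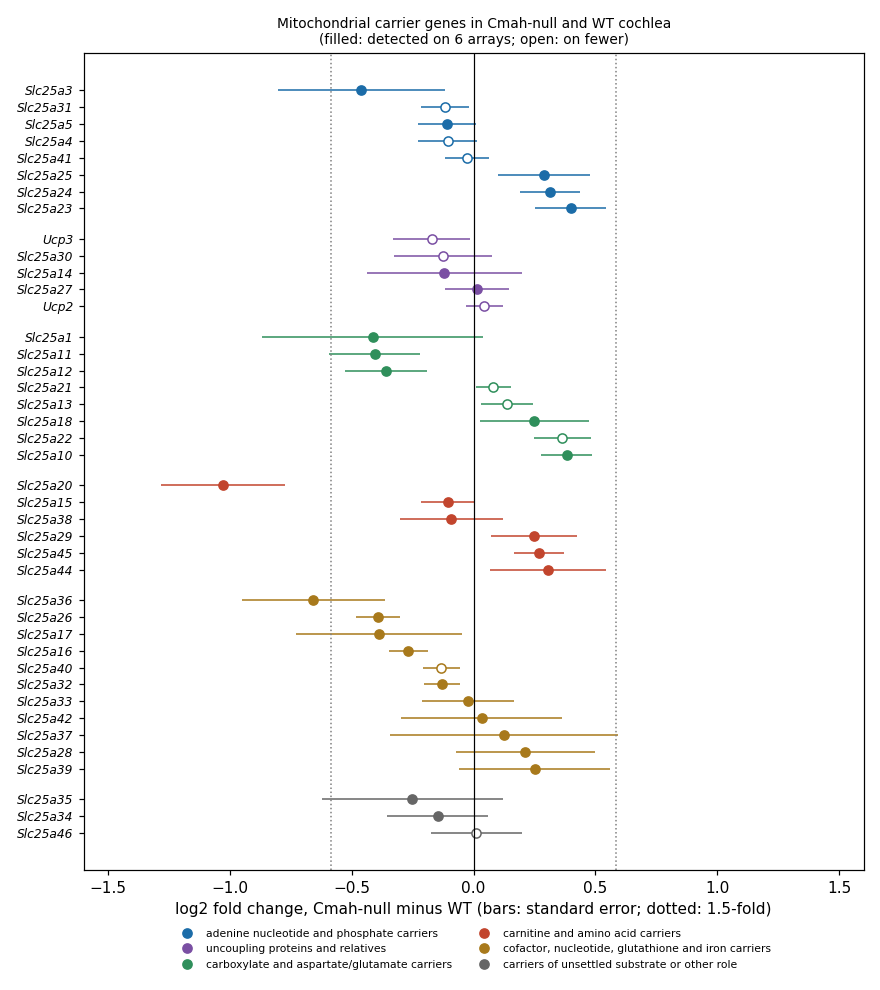
Log2 fold change of 41 carrier genes, *Cmah*-null minus WT, on the horizontal axis with its standard error (limma, 3 arrays per group), grouped by function on the vertical axis. *Slc25a20* at -1.03 lies farthest from 0, *Slc25a36* at -0.66 is the only other gene drawn outside the dotted lines of 1.5-fold, and *Slc25a23* at 0.40 lies highest.

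*Slc25a20* encodes the carnitine-acylcarnitine translocase, which carries long-chain acyl groups into the matrix for oxidation. On the arrays of WT replicates 1, 2 and 3 its log2 signal was 13.12, 12.20 and 12.28, and on those of *Cmah*-null replicates 1, 2 and 3 it was 11.38, 11.53 and 11.59. All WT values lay above all *Cmah*-null values, and WT replicate 1 was the highest. The WT mean was 12.53 ± 0.51 and the *Cmah*-null mean 11.50 ± 0.11 (SD, n = 3 each), which is 2.04-fold lower. The log2 fold change was -1.03 with an SE of 0.256, and the limma test gave an unadjusted p of 0.0074 and an adjusted p of 0.435. Leaving out any one array kept the fold change between -1.20 and -0.74. Scaling the arrays to one median gave -0.52 with an unadjusted p of 0.213, which ends the call.

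*Slc25a20* had 2 further probes. The probe at base 133 read 8.76, 7.76 and 7.93 in WT and 7.35, 7.61 and 7.18 in *Cmah*-null mice, again with no overlap, and its log2 fold change was -0.77 with an unadjusted p of 0.037 and an adjusted p of 0.569 (limma). This probe also met the rule for a call, and it was detected on 3 WT arrays and on 1 *Cmah*-null array. The probe at base 1598 was detected on none and had a log2 fold change of -0.10.

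The carnitine shuttle holds further genes beside this carrier. *Cpt2*, the carnitine palmitoyltransferase of the inner membrane, read 12.39, 11.83 and 11.96 in WT and 11.12, 11.09 and 11.46 in *Cmah*-null mice. The groups did not overlap, and its log2 fold change was -0.84 (unadjusted p 0.004, adjusted p 0.399, limma). *Cpt1b*, the muscle and brown fat form of the outer enzyme, read 12.71, 12.49 and 12.23 in WT and 11.25, 11.26 and 12.85 in *Cmah*-null mice, so *Cmah*-null replicate 3 was the highest of all 6 and the log2 fold change of -0.69 had an unadjusted p of 0.186. *Crat*, carnitine acetyltransferase, had a log2 fold change of -0.51 with an unadjusted p of 0.117, and *Cpt1a* was not detected on any array. With the arrays scaled to one median, *Cpt2* was at -0.34, *Cpt1b* at -0.16 and *Crat* at -0.03.

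Brown fat markers were lower beside *Slc25a20*, in 8 of 8 genes by sign. Of these, 5 were called lower at 1.5-fold with an unadjusted p under 0.05 (limma), beside 1.46% of all symbols. *Ucp1*, the uncoupling protein that defines brown fat, read 13.63, 12.48 and 11.79 in WT and 10.82, 10.84 and 9.90 in *Cmah*-null mice. The log2 fold change was -2.11, and -1.64 with the arrays scaled to one median. *Cidea* had a log2 fold change of -2.01, *Cox8b* -1.44, *Fabp3* -1.02 and *Ppargc1a* -0.65. The 8 signs include *Dio2*, another defining gene, at -0.06, which was not detected on any array. They also include *Ppara* at -0.09, detected on 2 arrays. Of the skeletal muscle markers 16 of 17 were lower by sign, among them *Myh2* with no difference (-1.17e-05). Of them 1 was called, *Mb*, myoglobin, at -0.87. With the arrays scaled to one median *Mb* was at -0.41 and *Acta1*, for one, at 0.18. The mean log2 signal of this list was 14.42, 14.46 and 13.41 in WT and 13.39, 13.43 and 13.69 in *Cmah*-null mice. WT replicate 3 thus lay among the *Cmah*-null values. The part of brown fat or muscle in the *Slc25a20* value was not tested.

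**Figure D2:**
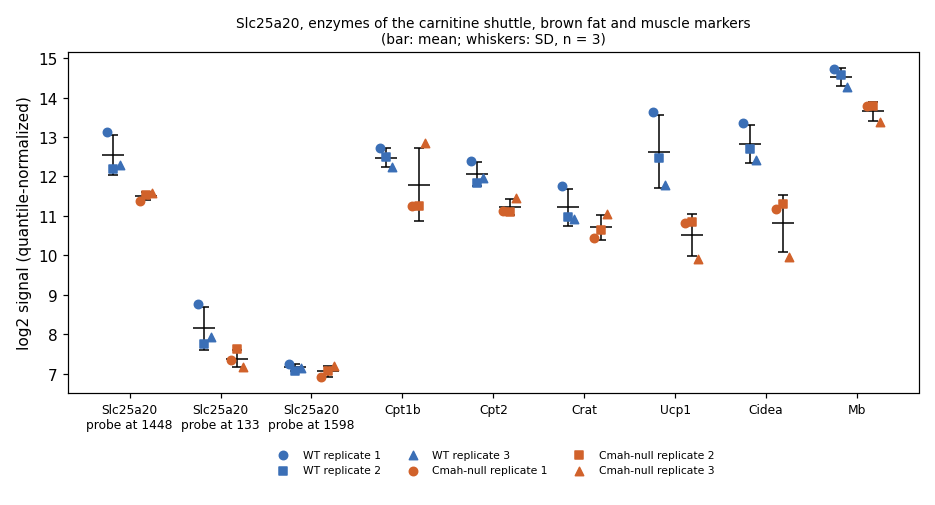
Log2 signal on each array for the 3 probes of *Slc25a20*, for *Cpt1b*, *Cpt2* and *Crat*, for *Ucp1* and *Cidea* of brown fat, and for *Mb* of muscle, with the mean and SD of each group (n = 3). The groups are apart for the *Slc25a20* probes at bases 1448 and 133, for *Cpt2* and for the brown fat and muscle genes drawn, and they overlap for *Crat* and for *Cpt1b*, where *Cmah*-null replicate 3 reads 12.85. Heights of different probes are not comparable.

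Carriers of cofactors, nucleotides, glutathione and iron made up the largest functional group, with 12 genes on the array. By sign 8 were lower and 4 higher, with a log2 fold change of -0.13 in the median, and 0 were called at 1.5-fold with an unadjusted p under 0.05. *Slc25a26*, the carrier of S-adenosylmethionine, the methyl donor, read 9.73, 9.57 and 9.50 in WT and 9.28, 9.14 and 9.20 in *Cmah*-null mice. The groups did not overlap, and its log2 fold change of -0.39 (SE 0.091, limma unadjusted p 0.005, adjusted p 0.417) had the smallest p of the family.

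*Slc25a16*, linked to coenzyme A, had a log2 fold change of -0.27 (unadjusted p 0.016, adjusted p 0.504, limma) with no overlap, but +0.15 with the arrays scaled to one median, where *Slc25a26* was at -0.09. *Slc25a32*, a carrier of folate and FAD, lay without overlap at -0.13, and its second probe, not detected on any array, was at 0.21. *Slc25a36*, a carrier of pyrimidine nucleotides, read 9.45, 8.76 and 8.94 in WT and 8.48, 8.81 and 7.88 in *Cmah*-null mice. The groups overlapped, and the log2 fold change of -0.66 (unadjusted p 0.067, adjusted p 0.611, limma) was -0.41 with the arrays scaled to one median. *Slc25a33*, which also carries pyrimidine nucleotides, was at -0.02.

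Carriers of iron and of glycine for heme varied between arrays of a group. *Slc25a37*, mitoferrin 1, which supplies iron for heme in red cell precursors, read 11.15, 12.14 and 11.00 in WT and 11.15, 11.10 and 12.42 in *Cmah*-null mice. Single arrays stood high in each group, WT replicate 2 and *Cmah*-null replicate 3, and the log2 fold change of 0.12 had an SE of 0.468. Erythroid markers were also highest on WT replicate 2, at a summed signal of 129489 against 83447 to 95080 on the other arrays, while *Cmah*-null replicate 3 was the lowest for them. *Slc25a28*, mitoferrin 2, read 11.98, 12.43 and 12.82 in WT and 12.29, 12.50 and 13.07 in *Cmah*-null mice, and the log2 fold change was 0.21 (unadjusted p 0.487). With the arrays scaled to one median it was called higher, at 0.74 (unadjusted p 0.002, adjusted p 0.107, limma). That scaling called 2139 of all 18138 symbols higher and 49 lower. *Slc25a38*, which brings in glycine for heme, had log2 fold changes of -0.09, 0.06 and -0.21 on its 3 probes. *Slc25a39*, needed for glutathione import, was at 0.25, and its paralog *Slc25a40* was not detected on any array. *Slc25a42*, a coenzyme A carrier, was at 0.03, and *Slc25a17*, whose product sits in peroxisomes, was at -0.39 with an SE of 0.340.

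The adenine nucleotide and phosphate carriers supply ATP synthase with ADP and phosphate and adjust the adenine pool of the matrix. Of 8 genes 5 were lower and 3 higher by sign, with a log2 fold change of -0.07 in the median and 0 called. *Slc25a5*, an ADP/ATP exchanger of many tissues, read 13.76, 13.51 and 13.55 in WT and 13.64, 13.54 and 13.31 in *Cmah*-null mice. The groups overlapped, and the log2 fold change was -0.11 (unadjusted p 0.402), against 0.39 with the arrays scaled to one median. *Slc25a4*, the exchanger of heart and skeletal muscle, was near background, at 7.48, 7.79 and 7.61 in WT and 7.69, 7.42 and 7.46 in *Cmah*-null mice. On 3 WT arrays and 1 *Cmah*-null array it passed detection, and its log2 fold change was -0.11. *Slc25a31*, the germ cell exchanger, was not detected on any array.

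*Slc25a3*, the phosphate carrier, read 12.87, 13.03 and 12.80 in WT and 12.06, 12.02 and 13.24 in *Cmah*-null mice on its chosen probe, at base 755. *Cmah*-null replicates 1 and 2 were the lowest of the 6 arrays and replicate 3 was the highest. The log2 fold change was -0.46 (SE 0.343, unadjusted p 0.229), and without *Cmah*-null replicate 3 it was -0.86 (unadjusted p 0.00021, adjusted p 0.105, limma). That fit leaves only *Cmah*-null replicates 1 and 2, the closest pair of arrays, whose small spread lowers the p. On the probe at base 1410 *Cmah*-null mice read 10.90, 11.04 and 12.01 against 11.19, 11.46 and 11.19 in WT, with replicate 3 again the highest, and its log2 fold change was 0.04. With the arrays scaled to one median the chosen probe was at 0.06.

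The detected carriers of ATP-Mg and phosphate, which calcium regulates, lay on the other side of 0. *Slc25a23* read 8.86, 8.44 and 8.52 in WT and 8.92, 8.90 and 9.19 in *Cmah*-null mice. All *Cmah*-null values lay above all WT values, and its log2 fold change of 0.40 was the highest of the family (SE 0.146, limma unadjusted p 0.036, adjusted p 0.569). *Slc25a24* also had no overlap, at 0.31 (unadjusted p 0.046, adjusted p 0.580, limma), and *Slc25a25* overlapped at 0.29. *Slc25a41*, which lacks the calcium-binding domain, was not detected on any array. The 3 probes of *Slc25a24* were at 0.31, 0.26 and 0.14, the last not detected on any array. With the arrays scaled to one median, *Slc25a23*, *Slc25a24* and *Slc25a25* were at 0.59, 0.47 and 0.67. That scaling moved the median of all symbols detected on 6 arrays from 0.04 to 0.34. Values above 0 there are thus no test of the direction of these 3 genes.

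The carboxylate and aspartate/glutamate carriers feed citrate out to lipid synthesis and run the shuttles that bring reducing power from cytosolic NADH to the matrix. By sign 3 of 8 were lower and 5 higher, with a log2 fold change of 0.11 in the median and 0 called. *Slc25a11*, the oxoglutarate carrier of the malate-aspartate shuttle, read 12.26, 11.97 and 11.58 in WT and 11.36, 11.62 and 11.60 in *Cmah*-null mice. WT replicate 3 lay among the *Cmah*-null values, and the log2 fold change was -0.41 (unadjusted p 0.075, adjusted p 0.624, limma). Its other probes gave -0.47 and -0.31. *Slc25a12*, an aspartate/glutamate carrier of the same shuttle, was at -0.36 (unadjusted p 0.079), and its paralog *Slc25a13* was not detected on any array.

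*Slc25a1*, the citrate carrier, read 11.89, 10.70 and 11.21 in WT and 10.42, 10.44 and 11.69 in *Cmah*-null mice. *Cmah*-null replicate 3 again lay apart from replicates 1 and 2, and the log2 fold change of -0.42 had an SE of 0.454. With the arrays scaled to one median *Slc25a1* was at 0.06, *Slc25a11* at 0.09 and *Slc25a12* at 0.06. *Slc25a10*, the dicarboxylate carrier, read 8.72, 8.74 and 8.78 in WT and 9.01, 9.05 and 9.32 in *Cmah*-null mice. There was no overlap, and its log2 fold change was 0.38 (SE 0.104, limma unadjusted p 0.011, adjusted p 0.463), or 0.62 with the arrays scaled to one median. Of the glutamate carriers, *Slc25a18* was at 0.25 with overlap. *Slc25a22* read 7.33, 7.29 and 6.99 in WT, where it was not well above background on any array, and 7.48, 7.57 and 7.65 in *Cmah*-null mice, where it was detected on 2. Its log2 fold change on the measured values was 0.36 (unadjusted p 0.022, adjusted p 0.529, limma). With the WT values raised to the detection floor of their arrays, the *Cmah*-null mean was 1.07-fold higher, a difference near background. *Slc25a21*, the oxodicarboxylate carrier, was not detected on any array.

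The uncoupling proteins and their relatives gave 0 calls among 5 genes. *Ucp2*, found in many tissues and linked to control of reactive oxygen, was not detected on any array by any of its 3 probes. Its chosen probe read 7.30, 7.22 and 7.20 in WT and 7.21, 7.35 and 7.29 in *Cmah*-null mice. *Ucp3*, the form of skeletal muscle and brown fat, read 7.53, 7.79 and 7.90 in WT and 7.38, 7.50 and 7.83 in *Cmah*-null mice, and was detected on 3 WT arrays and 1 *Cmah*-null array. Its log2 fold change was -0.17 (unadjusted p 0.315). The second *Ucp3* probe, detected on the 3 WT arrays alone, had no overlap and a log2 fold change of -0.35 (unadjusted p 0.022, adjusted p 0.529, limma). Of the brain-rich relatives, *Slc25a14* read 9.24, 9.23 and 9.17 in WT and 9.57, 9.36 and 8.35 in *Cmah*-null mice, with *Cmah*-null replicate 3 the lowest and a log2 fold change of -0.12. *Slc25a27* was at 0.01, and *Slc25a30* was detected on 1 array.

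Among the amino acid carriers, which stand with *Slc25a20* in a group of 6, *Slc25a45* had no overlap and a log2 fold change of 0.27 (unadjusted p 0.040, adjusted p 0.570, limma). *Slc25a44*, a carrier of branched-chain amino acids, was at 0.31 and *Slc25a29*, a carrier of basic amino acids, at 0.25, both with overlap. *Slc25a15*, the ornithine carrier of the urea cycle, was at -0.10. Of the 3 carriers of unsettled substrate or other role, *Slc25a35* read 9.51, 8.51 and 8.04 in WT and 8.52, 8.54 and 8.25 in *Cmah*-null mice, a spread within WT that held all *Cmah*-null values. *Slc25a34* was at -0.15, and *Slc25a46*, which acts on the outer membrane, was at 0.01 and was detected on 3 arrays.

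The arrays did not contribute evenly to these values. Of the 31 carrier genes detected on 6 arrays, the value farthest from the other 5 was that of WT replicate 1 in 11 genes and that of *Cmah*-null replicate 3 in 11. WT replicate 1 gave the highest value in 13 genes and *Cmah*-null replicate 3 in 11. *Cmah*-null replicates 1 and 2 differed by a median of 0.07 on the log2 scale, while replicate 3 lay a median of 0.33 from their mean. It was over 0.5 above that mean in 8 genes, among them *Slc25a37* (1.29), *Slc25a1* (1.26), *Slc25a3* (1.20) and *Slc25a42* (1.13), and over 0.5 below it in 5, among them *Slc25a17* (-1.15) and *Slc25a14* (-1.12). Without *Cmah*-null replicate 3, 22 carrier genes (52.4%) had no overlap in place of 11 (26.2%). Over all symbols the share rose from 16.7% to 34.8%. Leaving out any array can only raise or keep this share. Without *Cmah*-null replicate 1 or 2 it was 33.3% and 28.6% of the carrier genes and 22.2% and 23.2% of all symbols. The cause of the difference was not tested. *Slc25a3* was called lower beside *Slc25a20* without *Cmah*-null replicate 3, a fit that leaves only the close replicates 1 and 2 in that group. The array of WT replicate 1 and those of *Cmah*-null replicates 1 and 2 also held fewer beads per probe, a median of 32 to 34 against 38 or 39 on the other 3.

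**Figure D3:**
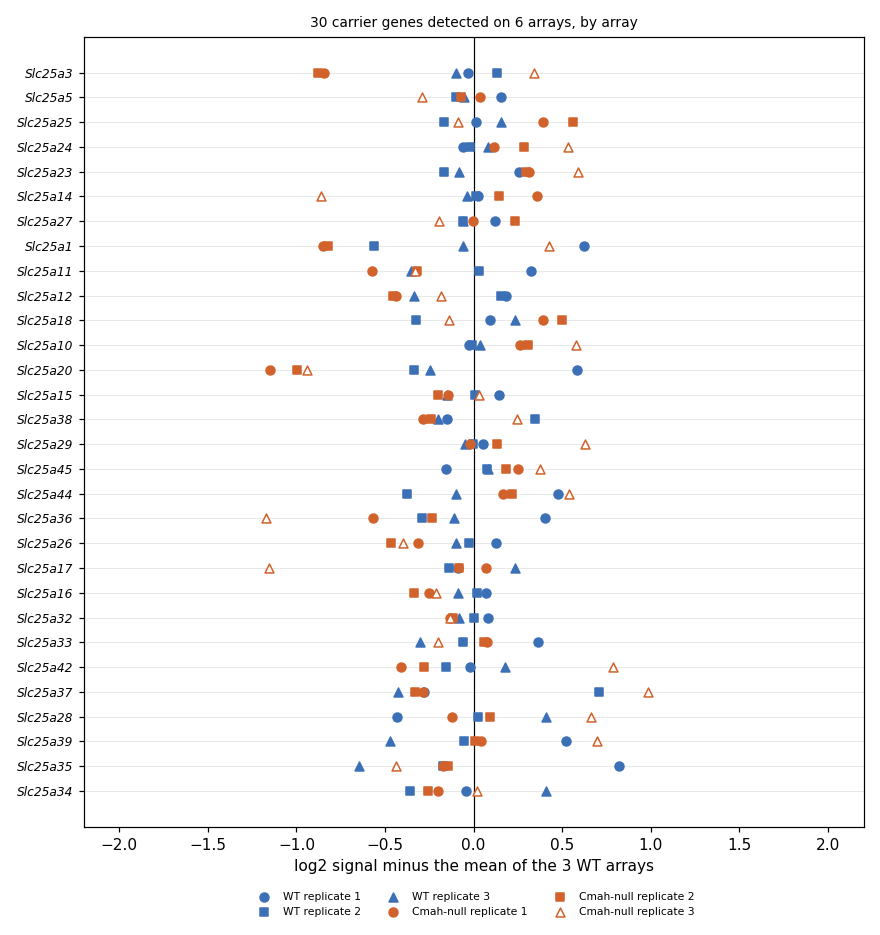
Log2 signal on each array, minus the mean of the 3 WT arrays, for 30 carrier genes detected on 6 arrays. *Cmah*-null replicates 1 and 2 (filled orange) lie close together, while *Cmah*-null replicate 3 (open triangles) lies over 0.5 from their mean in 13 genes, such as *Slc25a3*, *Slc25a37* and *Slc25a17*.

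Values split by number of beads per probe differed in size. *Slc25a20* was at -1.66 within the arrays of fewer beads (WT replicate 1 against *Cmah*-null replicates 1 and 2) and at -0.65 within those of more beads (WT replicates 2 and 3 against *Cmah*-null replicate 3), values with no test. *Slc25a26* was at -0.52 and -0.33, and *Slc25a10* at 0.31 and 0.56. *Slc25a3* differed in sign, at -0.83 and 0.32. *Slc25a36* was at -0.81 and -0.97 and, with the bead set as a block, at -0.89 (unadjusted p 0.000988, adjusted p 0.105, limma), which made it the second call beside *Slc25a20* at -1.15.

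Genes of mitochondrial transport outside the family were read beside the carriers. Of 20 on the array, 17 were lower and 3 higher by sign, with a log2 fold change of -0.20 in the median, and 3 were called lower and 0 higher. The called genes were *Ucp1*, *Cpt2* and *Tspo*, an outer membrane protein known for cholesterol and porphyrin binding, at -0.66. The porins *Vdac2* and *Vdac3* were at -0.42 and -0.58 and *Vdac1* at -0.06. *Mpc2*, a subunit of the pyruvate carrier listed under an older symbol, read 10.08, 9.77 and 9.54 in WT and 9.32, 9.28 and 9.29 in *Cmah*-null mice. It had no overlap and a log2 fold change of -0.50 (unadjusted p 0.013, adjusted p 0.481, limma). *Mcu*, the pore of the calcium uniporter, also listed under an older symbol, was at -0.58 without overlap, and *Sfxn3*, a sideroflexin, was at 0.45 without overlap. With the arrays scaled to one median, *Vdac1*, *Vdac2* and *Vdac3* were at 0.44, 0.08 and -0.10. *Mpc2*, *Mcu* and *Sfxn3* were then at -0.18, -0.55 and 0.62. The count of lower genes by sign thus depended on the scaling.

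Enzymes that work with the carriers gave 8 lower and 3 higher of 11 by sign, with a log2 fold change of -0.48 in the median and 1 called lower. That gene was *Gpd2*, the mitochondrial glycerol phosphate dehydrogenase, which read 12.27, 11.90 and 11.56 in WT and 10.62, 10.84 and 11.41 in *Cmah*-null mice, without overlap. Its log2 fold change was -0.95 (unadjusted p 0.012, adjusted p 0.479, limma), and -0.47 with the arrays scaled to one median. *Gpd1*, its cytosolic partner, was at -1.29 with an SE of 0.587. The shuttle enzymes *Mdh1* and *Mdh2* were at -0.80 and -0.12, and *Got2*, mitochondrial aspartate aminotransferase, at 0.07. *Ckmt2*, the creatine kinase of muscle mitochondria, was at -0.83 with overlap and *Ckmt1*, the form of other tissues, at 0.20. *Cs*, citrate synthase, was at -0.48 and *Acly*, which splits exported citrate, at -0.40. With the arrays scaled to one median, *Cs* was at 0.04 and *Acly* at 0.07, so signs in this list also depended on the scaling.

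The sign of many of these values depended on the scaling. In place of quantile normalization, scaling to one median moved the median log2 fold change of all symbols detected on 6 arrays from 0.04 to 0.34, and calls over all symbols from 265 lower and 292 higher to 49 lower and 2139 higher. The sign differed for 17 of the 42 carrier genes. Carrier genes called then were 0 lower and 4 higher, *Slc25a10* (0.62), *Slc25a23* (0.59), *Slc25a28* (0.74) and *Slc25a45* (0.61). Against that shift of all genes the carrier genes detected on 6 arrays had a median of 0.20, and *Slc25a20*, at -0.52, stayed the lowest of the 42.

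**Figure D4:**
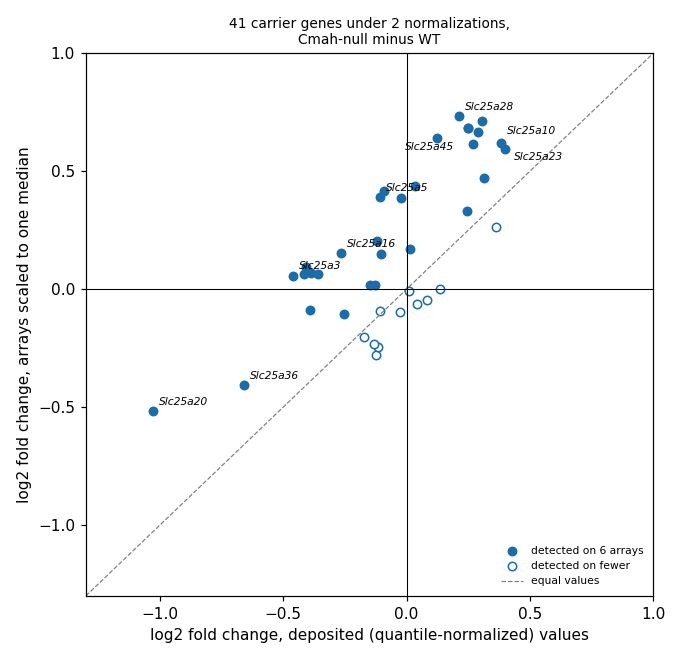
Log2 fold change of 41 carrier genes, *Cmah*-null minus WT, from the deposited quantile-normalized values on the horizontal axis and from arrays scaled to one median on the vertical axis; the dashed line marks equal values. Genes detected on 6 arrays lie above the line, so that genes such as *Slc25a16* and *Slc25a5* pass from below 0 to above it, while *Slc25a20* stays lowest under both.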

How the data were processed

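Cochlear RNA of each of 3 WT and 3 *Cmah*-null samples was hybridized to its own array. The deposited raw table holds intensity values (average bead signal), with a number of beads and a detection p value for each probe, per the file headers. The authors deposited log2 values in a second table, which equalled quantile-normalized log2 intensity without background correction to within 5e-07. Columns headed "old" were matched, by number, to the *Cmah*-null samples, since the sample records hold no other second group. That table's fold changes, LPE statistics, adjusted p values, means and SDs are the authors' own comparison and were not used.

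The log2 values of 25697 probes were fitted on genotype alone with lmFit and eBayes of limma 3.58.1 (R 4.3.3, two-sided), p values were adjusted by Benjamini-Hochberg over all of them, and 1 probe per symbol was reported, the brightest. The fit was tested on simulated data. Calls needed 1.5-fold with an unadjusted p under 0.05, or an adjusted p under 0.05. A probe with a detection p under 0.05 counted as detected. Precision is limited by the number of arrays.

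The members and gene lists were chosen with earlier results of these data known. Any member could be named, with values on every array for called genes, the largest differences, the brightest of each functional group, *Slc25a3*, *Slc25a4*, *Slc25a5*, *Slc25a20*, *Ucp2* and *Ucp3*, and values on every array were added for others after they were seen. Alternatives were neqc (offset 16), median scaling, a detection filter, a replicate block, a block for bead number, averaging the 2 close arrays, a trended robust prior, other probes per gene and leaving out each array. Values within bead sets were chosen after seeing the data. Promoters came from RefSeq GRCm38.p6. Protein sequences were not analysed here, and the values of 1 member, which is in the counts, are not reported here. Probe positions in the genome were not printed, since the probe annotation mixes builds. Figures used matplotlib 3.10.9 in Python 3.11.15.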

Additional observations from a re-analysis of the deposited data

How the results depend on the processing

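The count of 0 carrier genes at an adjusted p under 0.05 (limma) held under every alternative run. In the main fit 9 of the 42 carrier genes had an unadjusted p under 0.05, a larger share than the 9.07% of all symbols, with no set test. The count of calls at 1.5-fold with an unadjusted p under 0.05 was 1, lower. It was 3 with neqc, 2 of them lower, 4 with median scaling, 0 of them lower, and 2, both lower, with a block for bead number. Over all 18138 symbols, neqc gave 425 calls lower and 641 higher, and median scaling 49 lower and 2139 higher. Leaving out 1 array gave 1 to 3 calls, 1 to 3 of them lower. The count rose above 1 without WT replicate 2 (2), WT replicate 3 (2), *Cmah*-null replicate 2 (2, *Slc25a36* beside *Slc25a20*) and *Cmah*-null replicate 3 (3, with *Slc25a3*). *Slc25a22*, detected on 2 arrays, was called higher with neqc at 0.83. The count of genes whose groups did not overlap was 11, and 7 with median scaling, and 12 to 22 with 1 array left out, where 22.2% to 34.8% of all symbols had no overlap. The share of all symbols is not given for the 7 with median scaling. Nor is it given for the calls with the bead block or with 1 array left out. Those counts are therefore no result about the carriers. The median log2 fold change of the carrier genes, -0.10, reversed to 0.0798 with median scaling, and *Slc25a16* from -0.27 to 0.15. The median of all symbols detected on 6 arrays moved from 0.04 to 0.34 with that scaling. With 1 array left out the carrier median was between -0.09 and -0.02, and it was smallest in size without WT replicate 1. The cause of these differences was not tested. With *Cmah*-null replicates 1 and 2 averaged as 1 sample *Slc25a20* stayed called, at -1.01. With the replicate block the calls stayed at 1 (*Slc25a20*, unadjusted p 0.020) and the median at -0.10. Samples of the same number did not deviate together (correlations of 0.02, -0.17 and 0.01). With 3 arrays per group these correlations cannot show whether the samples were paired. Signal near background limits what the 11 carrier genes not detected on 6 arrays can show.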
